A study of Mus musculus with 5 samples.

Results

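The Zfp genes encode zinc finger proteins, most of them sequence-specific binders of DNA. In this set, 188 of 390 Zfp names were measured deeply enough in cultured cardiac fibroblasts (CF) to give each a T>C conversion rate, the readout of newly made RNA. CF were isolated from the hearts of adult healthy male C57Bl/6J wildtype mice, grown to confluency and then cultured for 12 h either with 0.1 mM 4-thiouridine (S4U, the 3 labeled libraries) or in parallel without it (the 2 unlabeled libraries). RNA of both groups was alkylated, so that S4U built into new transcripts is read as cytosine in place of thymine (SLAMseq). The T>C conversion rate of an interval is the number of conversions divided by the number of covered T positions. The members were selected on coverage and level: names of Zfp followed by a digit, without Zfp36 and its close relatives (which bind RNA through another kind of finger), with at least 100 covered T positions in each labeled library on the 3′ UTR interval of highest mean CPM (the deposited read count scaled to the depth of the library) there. Coverage and level in the labeled libraries are therefore descriptions here, and the question asked is how the rate and the level of these genes lie against 8214 other genes with the same coverage.

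A classic C2H2 zinc finger folds around a zinc ion held by a pair of cysteines and a pair of histidines, and a row of fingers reads a row of bases. Many mouse Zfp proteins also carry a KRAB domain, which recruits TRIM28 and, through it, SETDB1, HP1 proteins and the NuRD complex to silence retroelements and imprinted genes. Others act as activators, as chromatin adaptors, or in RNA and ribosome biology. Genes of the KRAB type lie in large clusters of related copies, and transcription factors as a class are known for low transcript levels and often for short-lived mRNA.

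The libraries were made with a 3′ tag protocol, which yields reads from the end of a transcript whatever its length, so that levels of different genes were compared without dividing by length. Between 506045 and 1843033 reads per library fell on 1 interval per gene, with labeled replicate 3 the shallowest. The sum of 8 CF markers (Col1a1, Col1a2, Col3a1, Pdgfra, Dcn, Tcf21, Vim and Thy1) lay between 40405 and 44089 counted CPM (reads scaled to the reads counted on 1 interval per gene) in the labeled and between 32803 and 36024 in the unlabeled libraries. The 4 endothelial markers summed to 76.8 to 163, the 5 immune markers to 35.8 to 73.6 and the 4 cardiomyocyte markers to 0.634 to 8.03 counted CPM in the 5 libraries. The 3 epicardial markers summed to 3.81 to 5.93 counted CPM in the labeled and 0.543 to 1.00 in the unlabeled libraries, with Msln at 0 in all 5, and the 3 mural markers to 4.18 to 13.8 and 2.01 to 5.43. The CF and epicardial sums did not overlap between the groups. The epicardial sums rest on 6, 6 and 3 reads in labeled replicates 1, 2 and 3. In unlabeled replicates 1 and 2 they rest on 1 read each, and most of these reads are of Wt1. Among the CF markers Col1a1 alone was higher without overlap in the labeled libraries, and Pdgfra was lower without overlap, with 516 to 525 against 722 and 841 counted CPM. The part of these markers in the results below was not tested.

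Tags come from the polyadenylated end of the transcript, and the last 30 bases of the intervals are shown for the 4 of highest and the 4 of lowest rate among the 26 Zfp genes that kept 500 or more covered T positions throughout the labeled group (GRCm39, 5′ to 3′ on the strand of the gene, with the poly(A) signal AATAAA or ATTAAA in capitals). For Zfp365 they lie at chr10:67721935-67721964 (minus strand), for Zfp207 at chr11:80287045-80287074 (plus), for Zfp706 at chr15:36997271-36997300 (minus) and for Zfp146 at chr7:29859912-29859941 (minus). For Zfp950 they lie at chr19:61103420-61103449 (minus), for Zfp503 at chr14:22034030-22034059 (minus), for Zfp809 at chr9:22154621-22154650 (plus) and for Zfp282 at chr6:47885390-47885419 (plus).
Zfp365: ctatgatAATAAAgctatatttctgactaa
Zfp207: tccacgtAATAAAactcagttaccaataca
Zfp706: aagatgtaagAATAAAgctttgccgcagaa
Zfp146: tattttATTAAAatttaaaatgacagcata
Zfp950: ccctaATTAAAtttgttgtcttttgtaaga
Zfp503: atttgatgtATTAAAaggttttacttctta
Zfp809: ggctaAATAAAcactccattttttttataa
Zfp282: ggaATTAAAggtatgtgccaccatgccaaa

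AATAAA was found on the sense strand within the last 50 bases in 120 of 188 Zfp intervals (63.8%) and in 68.1% of the other genes' intervals, and ATTAAA without AATAAA in 15.4% and 15.3%. Of the Zfp intervals, 140 lay inside an annotated exon of the gene, 47 overlapped one in part, and 1 (Zfp651) was not matched to an exon by name. The Zfp intervals were longer than those of other genes, with a median of 2000 against 1310 bases, and lower in GC content, with a median of 40.1% against 43.6%. Their T content, which sets how many positions a read can report on, was close to that of the other genes (median 30.2% against 29.8%). Another gene overlapped the interval on the same strand in 9 and on the opposite strand in 40 of the 188, and 11 shared at least 10% of their 31-base words with an interval of another name, up to 78.6% for Zfp970. Reads of these 11 could belong to the related copy, and their values are uncertain. The deposited tables list 0 multimapping reads for every interval.

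S4U raised the T>C rate of every one of the 188 Zfp genes. The median rate over the Zfp genes was 0.0344, 0.0367 and 0.0365 in labeled replicates 1, 2 and 3, against 0.000239 and 0 in the unlabeled replicates 1 and 2. The labeled and unlabeled medians were far apart, and the highest rate of a Zfp gene without S4U was 0.0117. The beta-binomial test called all 188 higher in the labeled libraries (two-sided, unadjusted threshold of 0.05), where 94.6% of all 19240 intervals tested and 99.5% of the genes with this coverage were called. The rates of all 3 labeled libraries lay above both unlabeled rates in 187 of 188, against a background of 99.3% of genes with this coverage. The exception was Zfp595, a KRAB zinc finger gene near the coverage minimum, with 0 conversions on 106 covered T positions in labeled replicate 1. A count of 0 there allows a rate of up to 0.0283, and the other labeled libraries gave 0.0396 and 0.0182. Conversions were thus detected in each Zfp gene over the 3 labeled libraries, as in nearly every other gene.

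The typical Zfp transcript carried slightly fewer conversions than the typical transcript of another gene. The median of the mean labeled rates was 0.0369 for the Zfp genes (quartiles 0.0323 and 0.0402) and 0.0385 for the 8214 other genes (quartiles 0.0336 and 0.0426). The difference of the medians, Zfp minus other, was -0.00304, -0.00190 and -0.00192 in labeled replicates 1, 2 and 3, which is of one sign in each library and a small part of the spread between genes. Of the Zfp genes, 65 (34.6%) lay above the median of the other genes. The median share of reads with at least 1 conversion was 50.3% in the Zfp genes and 51.6% in the others. No test was run on these medians, because genes are not replicates.

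Few Zfp genes were slowly labeled. A mean rate under 0.02 was seen in 1 Zfp gene (0.532%) and in 371 of the other genes (4.52%). It was also rare in the Zbtb and Rnf families, described below, with 0 of 26 and 0 of 51 genes. A rate over 0.05 was seen in 6 Zfp genes (3.19%) and in 337 others (4.10%), and a rate from 0.03 to 0.05 in 154 Zfp genes (81.9%) and 6695 others (81.5%). The lowest and the highest Zfp rates, 0.0193 in Zfp595 and 0.0540 in Zfp647, both belonged to genes just inside the coverage minimum. Without labeled replicate 2 the mean of Zfp595 was 0.0091. Other genes ranged from 0 to 0.0726. How far these tail shares follow from coverage was not tested.

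**Figure D1:**
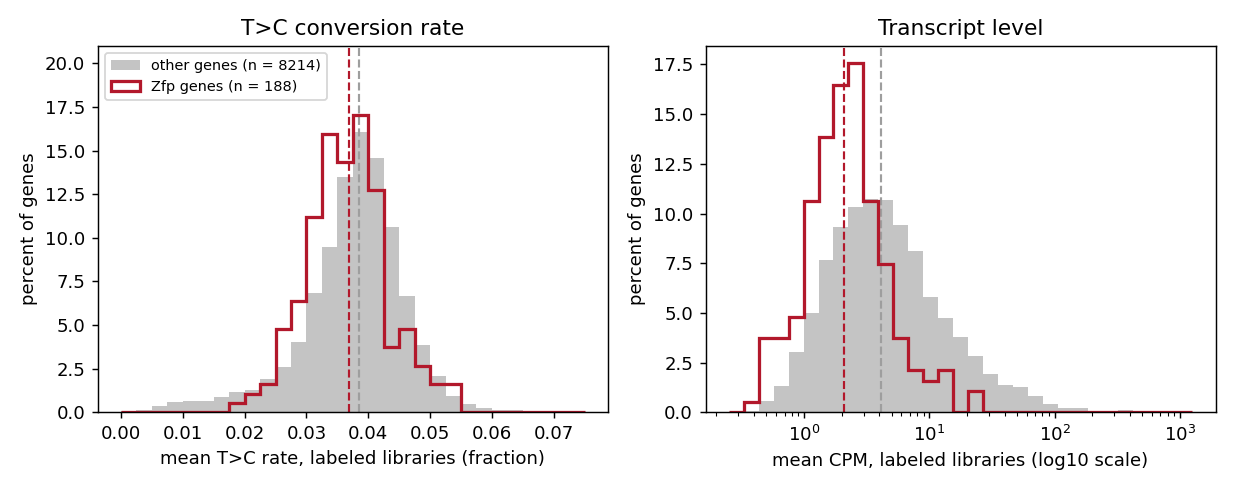
Histograms of the mean T>C rate (left, fraction) and the mean deposited CPM (right, log10 axis) over the 3 labeled libraries, in percent of genes, for 188 Zfp genes (red outline) and 8214 other genes with the same coverage (grey), with dashed lines at the medians. The rates overlap almost fully with medians of 0.0369 and 0.0385, while the levels of the Zfp genes are shifted down to a median of 2.11 against 4.12 CPM.

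The Zfp genes were low in level. Their median was 2.11 CPM against 4.12 CPM for the other genes with the same coverage, a 1.96-fold difference, and 31 of 188 (16.5%) lay above the other genes' median. Deposited CPM is scaled to more reads than those counted on intervals, and the Zfp median ran from 0.821 CPM in labeled replicate 3 to 3.35 CPM in labeled replicate 1. On counted CPM the Zfp medians were 25.4, 25.9 and 23.7 in labeled replicates 1, 2 and 3, and those of the other genes 48.2, 47.7 and 45.5. The 188 genes together held 0.714%, 0.597% and 0.587% of the counted reads with S4U (labeled replicates 1, 2 and 3), and 0.662% and 0.542% without (unlabeled replicates 1 and 2). Among all 390 Zfp names, 40 had no read in any labeled library. Fewer cells of a type and less RNA per cell cannot be told apart in these bulk libraries. Summed over all intervals of a gene the Zfp median was 3.26 CPM. The share of names that reached the coverage was 48.2% for Zfp and 41.1% for the 19975 other names.

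Since low coverage widens the spread of a rate, the genes were also compared within classes of coverage. Among genes with 100 to 199 covered T positions in the shallowest labeled library, the median rate was 0.0360 in 67 Zfp genes and 0.0374 in 1600 others. From 200 to under 500 it was 0.0368 in 95 Zfp genes and 0.0383 in 2672 others. From 500 upwards it was 0.0383 in 26 Zfp genes and 0.0389 in 3942 others. The Zfp median was the lower one in each class. With at least 1000 covered T positions, where 9 Zfp genes remained, the difference was -0.000828. It also stayed lower among genes whose CPM lay between the quartiles of the Zfp genes, with a difference of -0.00159, and among genes whose interval length did, with -0.00190.

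The order of the Zfp genes by rate differed from library to library. Across the 188 genes, Spearman's rho between the rates was 0.19 for labeled replicates 1 and 2, -0.0054 for 1 and 3, and -0.060 for 2 and 3. The other genes gave 0.40, 0.33 and 0.32, and those of them with under 500 covered T positions in the shallowest library gave 0.27, 0.21 and 0.18. The 26 Zfp genes with 500 or more covered T positions gave 0.43, 0.0058 and 0.42, so that their order was shared in part between labeled replicate 2 and each of the others but not between 1 and 3. The SD of the 188 mean rates was 0.00646, the median SD of a Zfp gene over its 3 labeled libraries was 0.00817, and the median standard error of its mean was 0.00472. A Zfp gene had a median of 60.5 conversions on 1646 covered T positions over the 3 labeled libraries. The exact 95% binomial interval of the pooled rate lay below the other genes' median in 27 Zfp genes (14.4%), above it in 10 (5.32%) and held it in 151. Among the other genes, which had 1.91 times the covered T positions at the median, 15.8% lay below and 13.6% above. Such intervals cover counting error only.

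Among the 26 Zfp genes that kept 500 or more covered T positions throughout the labeled group, the mean rates spanned 0.0298 to 0.0469, and the highest 4 were above the other genes' median in every labeled library. Zfp365, linked to genome stability after DNA damage, had rates of 0.0491, 0.0450 and 0.0468 in labeled replicates 1, 2 and 3, against 0.0013 and 0 without S4U, and 90.7% of the other genes were lower. Zfp207, a microtubule-binding spindle assembly protein, had 0.0420, 0.0458 and 0.0504 against 0.00053 and 0.00028 without S4U. These 2 genes overlapped each other in rate. Neither overlapped Zfp950, Zfp503, Zfp809 or Zfp260, described next. Zfp706, a very small zinc finger protein, had 0.0522, 0.0427 and 0.0419 in the labeled libraries. Zfp146, a protein made almost only of fingers, had 0.0431, 0.0457 and 0.0473. The others of the highest 10 were Zfp26, Zfp664, Zfp148, Zfp106, Zfp275 and Zfp131, with mean rates from 0.0442 down to 0.0392, of which Zfp664 (SD 0.0104, n = 3) and Zfp275 (SD 0.0096, n = 3) spread widely.

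The lowest 10 of the 26 well-covered genes had mean rates from 0.0298 to 0.0376. Zfp950, a KRAB protein, had rates of 0.0284, 0.0215 and 0.0394 in labeled replicates 1, 2 and 3, and the last of these lay above the other genes' median. Zfp503, a developmental repressor of the NET family, had 0.0359, 0.0245 and 0.0294. Zfp809, which silences murine leukaemia virus through its primer binding site, had 0.0276, 0.0318 and 0.0318 against 0.0046 and 0 without S4U. Zfp260, known as an effector of adrenergic signaling in cardiac muscle, had 0.0338, 0.0344 and 0.0310. Zfp503, Zfp809 and Zfp260 lay below the other genes' median in each labeled library. The remaining genes of the lowest 10 were Zfp282, Zfp217, Zfp46, Zfp322a, Zfp445 and Zfp871, with mean rates from 0.0308 up to 0.0376, and the labeled replicate 1 value of Zfp217, 0.0466, reached into the range of Zfp365. Zfp871 and Zfp445 were thus among the lowest 10 of only 26 and close to the other genes' median.

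**Figure D2:**
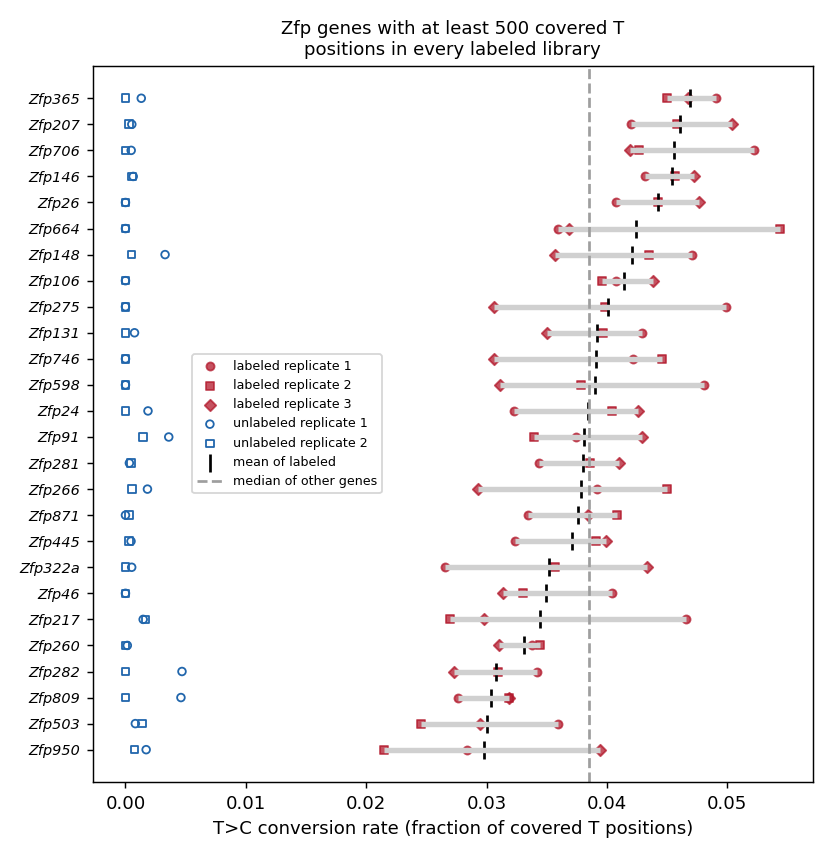
T>C rates (fraction of covered T positions) of the 26 Zfp genes that kept 500 or more covered T positions throughout the labeled group, ordered by mean. Filled red symbols are the 3 labeled and open blue symbols the 2 unlabeled libraries, grey bars span the labeled values, black ticks are their means and the dashed line is the other genes' median of 0.0385. The labeled values of neighbouring genes overlap, while Zfp365 at the top and Zfp260 near the bottom do not.

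The 6 Zfp genes of highest mean level, which are the same 6 by deposited and by counted CPM, held several rates in the middle of the range. Zfp281, a factor of pluripotent and differentiating cells, had 379, 128 and 111 counted CPM with S4U (labeled replicates 1, 2 and 3), and 281 and 106 without it (unlabeled replicates 1 and 2). Zfp445, which keeps imprints together with Zfp57, had 321, 161 and 152 in the labeled and 279 and 166 in the unlabeled libraries. In both genes the 2 libraries numbered 1 were the highest of all 5, so that the level differed more between libraries of 1 group than between the groups. Zfp281 was the highest by mean deposited CPM, while Zfp445 was by counted CPM, with 212 against 206. Without labeled replicate 1 the counted CPM of Zfp281 averaged 119, and it lay below Zfp445, Zfp871 and Zfp207 in labeled replicates 2 and 3. Zfp91, a ubiquitin ligase of the NF-kB pathway, had a mean of 14.3 CPM, Zfp871 of 14.4 CPM, Zfp207 of 13.0 CPM and Zfp260 of 11.9 CPM. Mean rates of the 6 genes ran from 0.0331 (Zfp260) to 0.0461 (Zfp207), with 0.0380 for Zfp281 and 0.0381 for Zfp91.

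Zfp proteins that act on RNA or ribosomes held some of the lowest and some of the middle rates. Of 8 genes on this list, 7 reached the coverage (all but Zfp385a), with a median rate of 0.0381 beside 0.0385 for the other genes. Zfp622, needed for maturation of the large ribosomal subunit, had 0.0285, 0.0255 and 0.0227 in labeled replicates 1, 2 and 3, and 8.13% of the other genes were lower. Zfp346, a binder of double-stranded RNA, had 0.0255, 0.0286 and 0.0250. In both genes each labeled library lay below its library's median for the other genes. Zfp593, a nucleolar factor of ribosome assembly, had 0.0416, 0.0437 and 0.0372, and Zfp598, the ubiquitin ligase that marks collided ribosomes, had 0.0481, 0.0379 and 0.0311. The remaining mean rates were 0.0414 for Zfp106, 0.0381 for Zfp326, which couples transcription elongation to splicing, and 0.0340 for Zfp638. Of these, Zfp326 (SD 0.0115, n = 3) and Zfp638 (SD 0.0164, n = 3) spread widely.

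Of 13 lineage and chromatin factors, 12 reached the coverage (all but Zfp536), with a median rate of 0.0371. Zfp410, known as an activator of the NuRD remodeller gene Chd4, had rates of 0.0393, 0.0276 and 0.0272 in labeled replicates 1, 2 and 3, and Chd4 itself had 0.0291, 0.0433 and 0.0323. Zfp423, a preadipocyte factor, had 0.0259, 0.0280 and 0.0956, the last on 136 covered T positions, so that its mean rests on labeled replicate 3 and was 0.0269 without it. Zfp703 had 0.0162, 0.0297 and 0.0656, the last on 122 covered T positions, and its mean of 0.0372 became 0.0229 without labeled replicate 3. The rest had mean rates of 0.0421 for Zfp148, 0.0419 for Zfp704, 0.0412 for Zfp462, 0.0380 for Zfp281 and 0.0370 for Zfp467. Lower means were 0.0331 for Zfp384, 0.0328 for Zfp516, 0.0320 for Zfp521 and 0.030 for Zfp503. Of these, Zfp462 (SD 0.0138, n = 3) and Zfp384 (SD 0.0122, n = 3) spread widely.

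Of 6 KRAB genes with known retroelement or imprint targets, 4 reached the coverage. Zfp568, a repressor at Igf2, had 0.0262, 0.0292 and 0.0296 in labeled replicates 1, 2 and 3 against 0.0050 and 0.0018 without S4U. Mean rates were 0.0304 for Zfp809, 0.0371 for Zfp445 and 0.0380 for Zfp932, whose interval shares 55.5% of its 31-base words with another. Zfp932 had 0.0622, 0.0336 and 0.0182 in labeled replicates 1, 2 and 3, on 193, 119 and 110 covered T positions. Its mean was 0.0259 without labeled replicate 1. Zfp57 and Zfp708 fell below the coverage and are given no rate.

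The partners of KRAB proteins were better covered. Of 14 corepressor genes, 12 reached the same coverage (all but Cbx3 and Uhrf1), with a median of 6.05 CPM and a median rate of 0.0394. Trim28, the direct partner of the KRAB domain, had 0.0302, 0.0365 and 0.0294 in labeled replicates 1, 2 and 3, and Setdb1, the histone methyltransferase it recruits, had 0.0377, 0.0460 and 0.0531. The lowest mean rate was 0.0226 in Chd3, the highest 0.0462 in Dnmt1. All 12 lay within the range of the Zfp genes, whose ends were Zfp595 (0.0193) and Zfp647 (0.0540), both just inside the coverage minimum. Chd3 lay below 0.0298, the lowest mean rate of a Zfp gene with 500 or more covered T positions in each labeled library. It had 219 covered T positions itself in labeled replicate 3. Of the other families of finger proteins, 26 Zbtb genes, which pair zinc fingers with a BTB domain, had a median rate of 0.0384 and a median of 2.54 CPM, and 51 Rnf genes, which encode RING ubiquitin ligases, had 0.0405 and 4.26 CPM.

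Zfp genes were also grouped by the make-up of the protein. Of 186 Zfp genes with a translated coding sequence, the median number of C2H2 finger patterns was 10 and the highest 36 (Zfp142, chosen here after its value was seen), and 75 held the core motif of a KRAB domain. The median rate was 0.0371 in these 75 and 0.0369 in the other 111. In labeled replicate 1 the medians were 0.0342 and 0.0345, in labeled replicate 2 0.0374 and 0.0364, and in labeled replicate 3 0.0341 and 0.0372, so that the order of the classes changed between libraries. By fingers, the median rate was 0.0390 in 13 genes with 0 to 1, 0.0352 in 73 with 2 to 9 and 0.0371 in 100 with 10 or more. Genes with 0 to 1 finger had the highest median in each labeled library, with 0.0366, 0.0379 and 0.0400. Spearman's rho of finger number and rate over the 186 genes was 0.03, given as a description. Over the 26 genes with 500 or more covered T positions it was -0.32, and over only 9 with 1000 or more it was -0.80. Over all 186 it ran from -0.060 to 0.11 without 1 labeled library, so it had no stable direction there. Over the 188 genes it was 0.17 for T content and -0.20 for GC content, against 0.25 and -0.25 over the other genes, and points of 1 library set share depth and base composition.

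**Figure D3:**
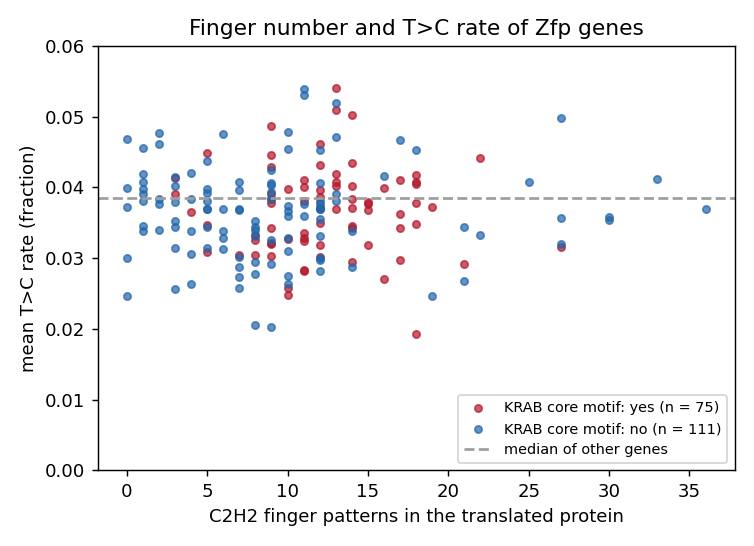
Mean T>C rate over the 3 labeled libraries (fraction, from 0) against the number of C2H2 finger patterns, 1 point per Zfp gene, red with (n = 75) and blue without (n = 111) a KRAB core motif, with a dashed line at the other genes' median of 0.0385. Most points lie between 0.03 and 0.05 in both colours, with a Spearman rho of 0.03 over all 186 genes and -0.32 over the 26 best covered.

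Sequence motifs tied to mRNA decay were also counted, on the sense strand. The AU-rich core TATTTAT was present in 79 Zfp intervals (42.0%) and in 33.8% of the other genes' intervals, and the Pumilio motif TGTANATA in 81 (43.1%) and 30.3%. Per 1000 bases of interval the AU-rich core was found 0.273 times in Zfp genes and 0.297 times in others, and the Pumilio motif 0.301 and 0.252 times. Zfp genes thus exceeded the others in the share of intervals with TATTTAT but not in its number per length, and in both measures for TGTANATA. Median rates of Zfp genes were 0.0370 with and 0.0369 without TATTTAT, and 0.0371 with and 0.0369 without TGTANATA. In the other genes they were 0.0394 with and 0.0380 without TATTTAT, and 0.0390 with and 0.0381 without TGTANATA. A match is a description of letters and not of binding.

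By position, 36 of the 188 genes lay on chromosome 7, 24 on chromosome 17 and 17 on chromosome 8, and 60 had another of the 188 within 100000 bases. Among chromosomes with more than 10 of the genes, the median rate was 0.0340 on chromosome 6 (13 genes), 0.0343 on chromosome 2 (11), 0.0345 on chromosome 7, 0.0360 on chromosome 5 (12), 0.0371 on chromosome 8 and 0.0376 on chromosome 17. The order changed between libraries. In labeled replicate 1 chromosome 2 had the highest of these medians, 0.0386. Chromosome 8 had 0.0361, 0.0319 and 0.0413 in labeled replicates 1, 2 and 3. No test was run on these medians.

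Whether S4U itself moved the read counts of Zfp genes was asked by comparing labeled with unlabeled libraries. No Zfp gene passed the test in the fit without a term for the replicate number: edgeR's quasi-likelihood test called 0 of 182 Zfp genes tested at a Benjamini-Hochberg adjusted p under 0.05 in either direction, where the background was 0% of 9807 genes higher and 0% lower. DESeq2 also called 0 Zfp genes, where the background was 0.0826% of 12113 genes higher (10 genes) and 0.0330% lower (4 genes), and it gave Zfp365 an adjusted p of 0.054. At an unadjusted p under 0.05 in edgeR, 4 Zfp genes were higher (2.20% of 182, against a background of 2.84%) and 0 lower (background 3.12%). The coverage minimum was set on the labeled libraries alone, so it favours genes that are high there, and the counts over the Zfp genes that passed it are a description and support no direction. Of the 188 genes, 182 also had the coverage in both unlabeled libraries, and 49 Zfp names had it in the unlabeled libraries but not in every labeled one. The median log2 fold change was 0.19 over the 182 Zfp genes tested and 0.03 over the 8168 other genes tested with the same coverage, beside 0.19 over the 51 Rnf genes and 0.04 over the 26 Zbtb genes, which passed the same minimum. Over all 222 Zfp names tested, with no coverage minimum, it was 0.18, against 0.02 over all genes tested. A value above 0 was seen in 132 of the 182 (72.5%) and in 53.3% of the other genes with the same coverage, and in 154 of the 222 (69.4%) and 51.7% of all genes tested. Without unlabeled replicate 1 the Zfp median was 0.31. Each labeled library lay above both unlabeled ones in 24 of the 182 (13.2%), against a background of 8.93% of the other genes with the same coverage, and below both in 8 (4.40%), against 12.8%. Of the 222 names, 26 lay above (11.7%) and 9 below (4.05%), against a background of 8.20% and 13.1% of all genes tested. The median log2 ratio to the unlabeled mean was 0.15, 0.07 and 0.01 for the Zfp genes in labeled replicates 1, 2 and 3, beside -0.05, -0.08 and -0.16 for all genes tested. In this fit each role list had 0 calls, and the median log2 fold changes were 0.30 for the RNA and ribosome list, 0.05 for the lineage list, 0.37 for the 3 tested KRAB genes with known targets and -0.21 for the corepressors.

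Zfp365 stood at the top of this comparison. It had 80, 63 and 30 reads in the labeled libraries 1 to 3, beside 31 and 9 reads in the unlabeled libraries 1 and 2, or 50.8, 52.7 and 59.3 against 16.8 and 9.03 counted CPM. The groups did not overlap. The log2 fold change was 2.10 (SE 0.37) in the fit without a term for the replicate number. In that fit edgeR's quasi-likelihood test gave an unadjusted p of 0.00073 and an adjusted p of 0.51. Zfp365 was called in the fit with a replicate block, given with the alternatives at the end. It had the largest log2 fold change of the tested Zfp genes and the highest mean rate of the 26 well-covered ones.

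The other 3 were Zfp451, a SUMO ligase, Zfp60 and Zfp715 (the last named after its value was seen). Zfp451 had 24.1, 30.1 and 29.6 counted CPM with S4U and 14.6 and 7.03 without, a log2 fold change of 1.39 (SE 0.42). It had 99 covered T positions in unlabeled replicate 2, so it met the coverage minimum only through the labeled group, where it was high. Zfp60, a KRAB protein, had 27.3, 30.1 and 49.4 with S4U and 11.9 and 16.1 without, a log2 fold change of 1.40 (SE 0.44). Both sets of libraries were apart in each gene. In the fit without the replicate number edgeR's adjusted p was 0.70 and 0.72, while both genes were called with the replicate block. At the other end stood Zfp638, which takes part in silencing of unintegrated viral DNA. It had 6.98, 5.02 and 9.88 counted CPM with S4U and 17.9 and 11.04 without (log2 fold change -0.99, SE 0.50). These values rest on 11, 6 and 5 reads against 33 and 11. Zfp521, a paralog of Zfp423, had 26.6, 30.96 and 17.8 with S4U and 35.8 and 63.2 without (log2 fold change -0.87, SE 0.39). These groups did not overlap either, and the adjusted p in edgeR was 0.91 and 0.87.

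**Figure D4:**
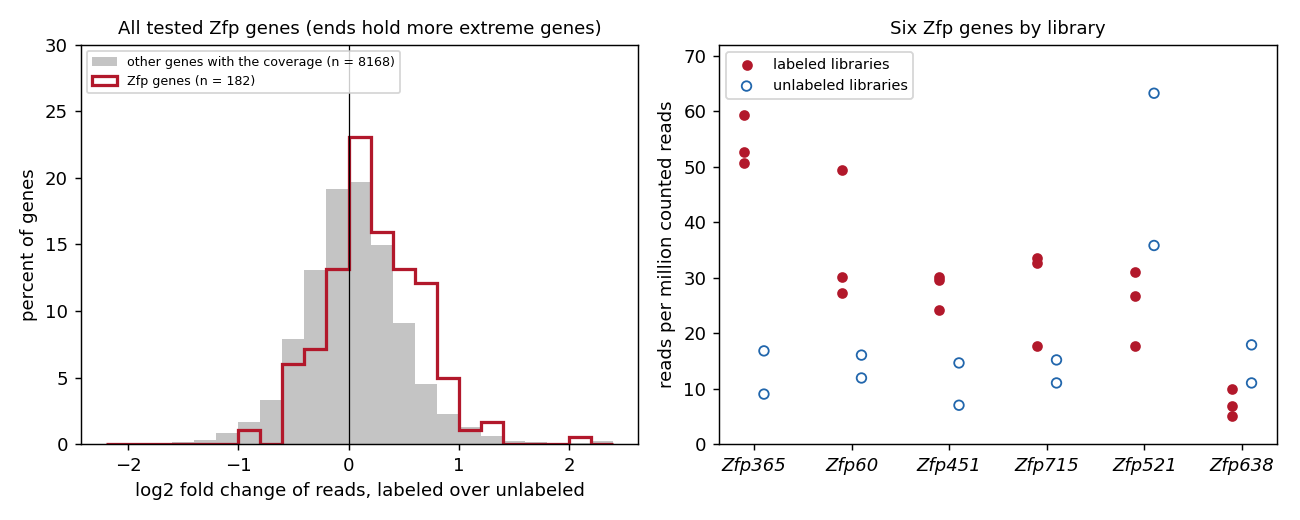
Left, histogram of edgeR log2 fold changes of reads, labeled over unlabeled, in percent of genes, for 182 Zfp genes (red outline) and 8168 other tested genes with the same coverage (grey), with values beyond the axis placed in the end bins. Right, counted CPM (from 0) of 6 Zfp genes in the 3 labeled (filled) and 2 unlabeled (open) libraries. These 6 were picked with their values in this comparison known, so that their lack of overlap is no result. Each labeled library lay above both unlabeled ones in 13.2% of the 182 Zfp genes and 8.93% of the 8168 others. It lay below both in 4.40% and 12.8%. The Zfp outline lies to the right of the grey one, with medians of 0.19 and 0.03.

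At the coverage minimum, the 3 genes just inside were Zfp580, Zfp595 and Zfp647, each with 101 covered T positions in the shallowest labeled library and mean rates of 0.0314, 0.0193 and 0.0540. Zfp580 had 0.0261, 0.0087 and 0.0594 in labeled replicates 1, 2 and 3, and its mean was 0.0174 without labeled replicate 3, while that of Zfp595 was 0.0091 without labeled replicate 2. The 3 just outside were Zfp710 and Zfp874b with 99 and Zfp53 with 97, and mean rates of 0.0367, 0.0296 and 0.0367. The rates outside lay between those inside, but the 3 inside include the lowest and the highest of the Zfp genes with the coverage. This comparison therefore cannot show whether the minimum matters.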

How the data were processed

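SLAMseq libraries of CF (3 labeled, 2 unlabeled) were grouped by the submitters' labels. The authors extracted molecular identifiers, used SLAM-DUNK 0.4.3 for mapping against mm39, then dropped duplicates and counted on 3′ UTR intervals. The deposited counts are reads, reads with a conversion, covered T positions and conversions, none of them normalized. The conversion rate was deposited as a fraction, conversions over covered T positions. The deposited CPM is scaled to one number of reads per library that exceeds the reads on intervals.

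Duplicate rows were collapsed, and each gene stands for the interval of highest mean labeled CPM. Members, lists and tests were chosen with earlier results of these data known. The labeled and unlabeled rates entered a two-sided beta-binomial likelihood-ratio test, run wherever all 5 libraries covered a T. Read counts were compared with edgeR 4.0.16 (quasi-likelihood, TMM, filterByExpr, Benjamini-Hochberg adjustment over all genes tested), with DESeq2 1.42.0 and limma 3.58.1 (R 4.3.3) as alternatives. The scripts were tested on simulated data. Tables and figures used matplotlib 3.10.9, biopython 1.88, numba 0.67.0, pandas 2.3.3, scipy 1.17.1 and numpy 2.4.6 under Python 3.11.15. T content of 40380 of 40380 intervals on reference chromosomes matched GRCm39. Proteins were translated from the GENCODE coding sequences of that build (186 of 188 matched). A finger was a pattern of 2 cysteines 2 to 4 residues apart, 12 residues, and 2 histidines 3 to 5 apart. The KRAB core motif was an acidic, lysine or glutamine residue, glutamate, tryptophan, any 2 residues, and leucine or methionine.

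The genes named were the 10 highest and 10 lowest in mean rate with at least 500 covered T positions in each labeled library, the 6 highest in CPM, 3 role lists and the corepressor list. Up to 5 genes called for reads in each direction by the fit with a replicate block were named too. So were the 3 on each side of the coverage minimum. The labels do not say that libraries are separate animals, although the study gives 3 preparations, so p-values measure the spread between these libraries. Alternatives covered coverage, summed intervals, background, scaling, filters, the replicate number and left-out libraries.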

Additional observations from a re-analysis of the deposited data

How the results depend on the processing

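All 188 Zfp genes were also called raised after Benjamini-Hochberg adjustment and by limma on the log odds, and 9 of 9 that kept 1000 or more covered T positions throughout (fewer genes by construction). Leaving out 1 library gave 181 to 187. The median rate of 0.0369 became 0.0355 after subtracting the unlabeled rate and 0.503 as a share of reads with a conversion, a different scale, and it lay between 0.0359 and 0.0372 without 1 labeled library. The difference from other genes, -0.00154, became -0.000828 at 1000 covered T positions and -0.0135 as a share of reads, and ranged from -0.00225 (without labeled replicate 3) to -0.00145 (without labeled replicate 1). It kept its sign under each alternative tried. Since the multimapping column is 0 throughout, the alternative without multimapping intervals could not be fitted. The median level was 25.2 CPM on counted reads in place of 2.11 CPM, 3.26 CPM summed over intervals, 0.865 CPM over all Zfp names, and 1.53 to 2.79 CPM without 1 labeled library. The median log2 fold change of reads, 0.19, ranged from 0.14 (without labeled replicate 1) to 0.31 (without unlabeled replicate 1). With a replicate block it was 0.23, and edgeR then called 5 Zfp genes higher (Zfp365, Zfp451, Zfp60, Zfp52 and Zfp871) and 0 lower, among 528 higher and 618 lower of 9807 genes. In that fit edgeR's adjusted p was 6.8e-10 for Zfp365, and the corepressor Dnmt1 was lower (log2 fold change -0.89, adjusted p 0.027). With the replicate block limma on the log odds gave 187 raised. Deviations from the group means of libraries with the same number correlated at 0.78 and 0.64, but only 2 numbers are shared, labeled replicate 3 has no partner, and the labels do not say what a number marks. The 2 unlabeled libraries deviate in mirror image, so these values are not independent of each other. Labeled replicate 3 correlated at 0.48 with unlabeled replicate 2 without sharing its number. By construction the labeled deviations of a gene sum to 0, so this value is not independent of the others. It cannot decide what a number marks. Spearman's rho of fingers and rate, 0.03, was -0.80 over the 9 Zfp genes with 1000 covered T positions and ran from -0.060 to 0.11 without 1 labeled library. Alternatives added after seeing the data (dropping shared or overlapping intervals, coverage in all 5 libraries, all Zfp names) moved no median by more than the spread between libraries. A Zfp gene had a median of 60.5 conversions over the labeled libraries, which limits the precision of its rate.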
